A study of Mus musculus with 11 samples.

Results

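The genes described here are the mouse matrix metalloproteinases (Mmp), the ADAMTS proteases, their protease-less ADAMTS-like relatives (Adamtsl) and the tissue inhibitors of metalloproteinases (Timp). They were chosen by symbol alone, as every gene named Mmp, Adamts, Adamtsl or Timp with a number. The rule found 51 of the 21684 genes in the table, namely 23 Mmp, 19 Adamts, 5 Adamtsl and 4 Timp genes. RNA was sequenced from the mouse embryonic fibroblast line NIH/3T3, and the design compared knockout lines with wild type for genes changed in common or in 1 line. There were 2 wild-type (WT) libraries and 3 each from cells labelled Xap5 KO, Nono KO and Sox5 KO, where KO is a knockout and Xap5 has the mouse gene symbol Fam50a. Cells of every group, WT included, had been without serum for 24 h, a treatment under which this line forms primary cilia. The labels name no separate clones, so a difference between genotypes and a difference between cell lines cannot be told apart. Nothing says that replicates came from separate cultures, so the p-values measure the spread between these libraries, which may be technical.

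Metalloproteinases are zinc enzymes that are made as inactive precursors and cut collagen, proteoglycans, growth factor carriers and other matrix proteins outside the cell or at its surface. The secreted ADAMTS enzymes are narrower: some cut the large proteoglycans versican and aggrecan, some trim fibrillar procollagens, and others cut cartilage matrix proteins or von Willebrand factor. TIMPs bind the active site of these enzymes, and in fibroblasts the best known arrangement is a surface complex in which MMP14 with TIMP2 activates the MMP2 precursor.

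A run of 10 Mmp genes lies side by side on chromosome 9 within 427 kb (GENCODE M21 annotation of GRCm38), in the order Mmp13, Mmp12, Mmp1b, Mmp3, Mmp1a, Mmp10, Mmp8, Mmp27, Mmp20, Mmp7. Promoters of this cluster are known for binding AP-1, the Fos and Jun family of transcription factors, at the letters TGANTCA, which read the same on both strands. In RefSeq promoters (GRCm38.p6), the 250 bases before the annotated start held TGANTCA in 8 of the 10 cluster genes and in 0 of the 26 other genes described here that could be matched. Over all 32851 promoters in the table, 6.75% held it. The TATA box letters TATAAA, searched on both strands, stood in 7 of the 10 cluster genes, in 3 of the 26 others and in 12.4% of all promoters. A gene with more than 1 annotated start was counted if any of its promoters held the letters, as for Mmp7 and Mmp12, and a match is a description of the letters only. Below are the 120 bases before the start of 6 cluster genes, on the plus strand of chromosome 9, with TGANTCA in capitals. The 4 with the letters include Mmp3 and Mmp10, which carried the largest differences below. The others with the letters, Mmp13 and Mmp1a, had at most 27 and 4 counts in any library. The 2 without the letters in 250 bases, Mmp8 and Mmp27, had at most 54 and 81 counts. A link between the letters and the counts was not tested. The windows are chr9:7445702-7445821 for Mmp3, chr9:7502222-7502341 for Mmp10, chr9:7272394-7272513 for Mmp13, chr9:7464021-7464140 for Mmp1a, chr9:7558309-7558428 for Mmp8 and chr9:7571276-7571395 for Mmp27.
Mmp3: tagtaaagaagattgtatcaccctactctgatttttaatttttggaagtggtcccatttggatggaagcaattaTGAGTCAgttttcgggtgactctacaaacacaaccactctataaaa
Mmp10: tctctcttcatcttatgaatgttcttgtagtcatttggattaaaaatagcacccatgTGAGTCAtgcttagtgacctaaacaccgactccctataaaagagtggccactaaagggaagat
Mmp13: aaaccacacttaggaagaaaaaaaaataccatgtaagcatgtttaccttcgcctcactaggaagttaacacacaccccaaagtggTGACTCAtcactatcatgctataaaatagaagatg
Mmp1a: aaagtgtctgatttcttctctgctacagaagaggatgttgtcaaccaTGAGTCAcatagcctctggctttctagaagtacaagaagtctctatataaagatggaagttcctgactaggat
Mmp8: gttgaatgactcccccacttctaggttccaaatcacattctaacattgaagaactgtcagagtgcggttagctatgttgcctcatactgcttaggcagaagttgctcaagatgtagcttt
Mmp27: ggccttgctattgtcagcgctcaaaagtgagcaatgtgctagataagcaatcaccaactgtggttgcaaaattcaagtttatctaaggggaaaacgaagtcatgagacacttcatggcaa
The first base of the letters lay 46 bases before the annotated start in Mmp3, 63 in Mmp10, 35 in Mmp13 and 73 in Mmp1a.

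The libraries held 30205878 to 43498383 counts. Levels are CPM (counts scaled to library size) on library sizes scaled with TMM factors, and levels of different genes are compared only as CPM per kilobase of the longest transcript. The targeted genes were lower in their own lines: Fam50a stood at 62.9 to 64.8 CPM in WT and 7.49 to 7.91 in Xap5 KO, and Nono at 351 to 357 CPM in WT and 27.6 to 34.0 in Nono KO. Sox5 stood at 45.9 to 49.7 CPM in WT and 12.6 to 13.9 in Sox5 KO, but also at 11.9 to 15.02 in Xap5 KO and 7.01 to 8.76 in Nono KO, so its level does not single out its own line. All 10 fibroblast markers were read, with sums of 24020 to 24080 CPM in WT, 19110 to 20540 in Xap5 KO, 48740 to 53560 in Nono KO and 20690 to 21230 in Sox5 KO. Of these 10, 4 rose and 3 fell in Xap5 KO, 7 rose and 0 fell in Nono KO (7 and 2 under library totals), and 7 rose and 2 fell in Sox5 KO. Over all tested genes 23.2% rose and 22.3% fell in Xap5 KO, and 23.5% and 25.1% in Nono KO. In Sox5 KO these shares were 30.6% and 30.3%. The 6 macrophage markers summed to 2.66 to 2.88 CPM in WT, 4.02 to 5.43 in Xap5 KO, 9.28 to 13.9 in Nono KO and 4.18 to 5.19 in Sox5 KO; most of the Nono KO sum was Ptprc, while Adgre1 and Itgam never passed 6 counts in a library. Of the 4 neutrophil markers 3 were at 0 throughout, and the sums of the epithelial and endothelial markers never passed 0.497 and 2.79 CPM. Those of the chondrocyte and osteoblast markers ran from 1.31 to 12.0 and from 0.206 to 4.18 CPM. The part of these markers in the results below was not tested.

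Of the 51 genes, 33 passed the filter on expression and were tested: 15 Mmp, 12 Adamts, 2 Adamtsl and all 4 Timp genes. A gene is called where edgeR's quasi-likelihood test gave an adjusted p under 0.05 (Benjamini-Hochberg, over all 13332 tested genes). Against WT, 24 of the 33 were called in Xap5 KO, 13 higher and 11 lower; of all tested genes 45.5% were called, 23.2% higher and 22.3% lower. In Nono KO 22 were called, 17 higher and 5 lower, against 48.6% of all genes (23.5% higher, 25.1% lower); scaled by library totals in place of TMM the split was 17 higher and 9 lower. In Sox5 KO 23 were called, 12 higher and 11 lower, against 60.9% of all genes (30.6% higher, 30.3% lower). Genes called and changed at least 2-fold numbered 14 in Xap5 KO (10.3% of all genes), 15 in Nono KO (11.2%) and 10 in Sox5 KO (17.2%). Libraries of a knockout and of WT did not overlap at 75.8% of all tested genes for Sox5 KO, 65.5% for Nono KO and 63.7% for Xap5 KO, so separate groups at a single gene below are common in these data. A gene that passes the filter only through the group where it is read had to differ, so these shares describe the tested genes and not all 51.

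The ADAMTS proteases leaned upward in each line. Of 12 tested, 8 rose and 1 fell in Xap5 KO, 9 rose and 2 fell in Nono KO, and 6 rose and 2 fell in Sox5 KO. Of all tested genes 23.2% rose and 22.3% fell in Xap5 KO, 23.5% and 25.1% in Nono KO, and 30.6% and 30.3% in Sox5 KO. The rises in Xap5 KO and Nono KO include Adamts15, which had 0 counts in both WT libraries and could only come out higher. The median log2 fold change of the 12 was 1.70 in Nono KO, 0.68 in Sox5 KO and 0.60 in Xap5 KO. The median over all tested genes lay between -0.02 and 0. The Sox5 KO value became 0.27 with Adamts15, unread in WT and without a bound in that line, set to no change. Of the 15 tested Mmp genes, 5 were up and 6 down in Xap5 KO, 6 up and 3 down in Nono KO and 5 up and 5 down in Sox5 KO. The rises include Mmp3, Mmp10 and Mmp27 in each line and Mmp8 in Xap5 KO and Nono KO. Those genes had 0 counts in both WT libraries and passed the filter through knockout libraries, so they could only come out higher. In the other direction, Mmp16 fell in Nono KO, where it was at 0 in every library. The split of the Mmp genes was 6 and 6 in Nono KO under library totals, and 5 and 3 in Sox5 KO once each chromosome's median was removed.

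There were 9 genes higher than WT in all 3 knockouts: Mmp2, Mmp3, Mmp10, Mmp27, Adamts1, Adamts2, Adamts5, Adamts6 and Adamts9. Over all tested genes 8.33% were. Of the 9, Mmp3, Mmp10 and Mmp27 had 0 counts in both WT libraries and passed the filter through knockout libraries. Their direction was thus fixed before the test. Another 3 were lower in all 3, Mmp11, Mmp28 and Adamts14, against 7.61% of all genes. And 5 were called in opposite directions in different knockouts, Mmp24, Adamts7, Adamts12, Adamtsl4 and Timp3, against 14.8% of all genes. The knockouts share the 2 WT libraries, so agreement between them is not independent. The 9 tested genes of chromosome Y summed to 199 and 204 CPM in WT, to 0 in all 3 Xap5 KO libraries, and to at most 0.39 in Nono KO and 0.0678 in Sox5 KO. WT thus differed from all 3 knockout lines in more than the targeted genes, and a change common to the 3 lines cannot be told apart from that difference. Mmp13, Mmp17, Mmp23, Adamts16 and Timp4 were called in none.

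**Figure D1:**
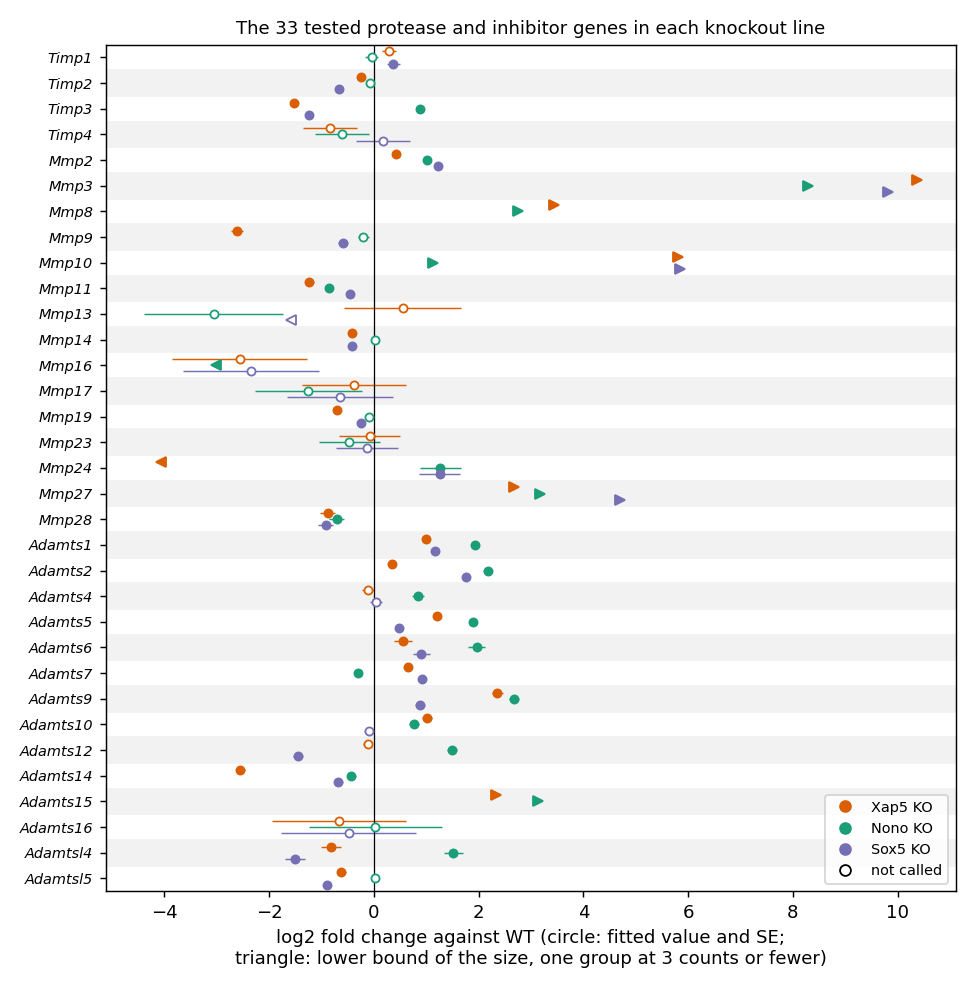
Log2 fold change against WT (horizontal axis) of the 33 tested genes in each knockout; circles are fitted values with their SE, open where not called, and triangles are the smallest size allowed where 1 group had at most 3 counts in every library. Mmp8 and Adamts15 have no Sox5 KO symbol because no bound could be given; Mmp3 lies farthest right in all 3 knockouts.

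The chromosome 9 cluster carried the largest differences. Mmp3, stromelysin-1, which cuts proteoglycans and fibronectin and activates other Mmp precursors, had 0 counts in both WT libraries. It had 3730, 4084 and 3868 counts in Xap5 KO, 976, 917 and 853 in Nono KO, and 2227, 1982 and 2054 in Sox5 KO. Every knockout library thus stood far above both WT libraries, and the 3 knockouts did not overlap. Against a floor of 3 counts in a WT library, Mmp3 stood at least 1320-fold higher in Xap5 KO (adjusted p = 6.06e-20), at least 313-fold in Nono KO (adjusted p = 2.44e-18) and at least 903-fold in Sox5 KO (adjusted p = 2.02e-19). It ranked Xap5 KO above Sox5 KO by a log2 difference of 0.55 ± 0.0675 (SE, adjusted p = 5.79e-07), and Sox5 KO above Nono KO by a larger step: Nono KO against Sox5 KO was -1.53 ± 0.0704 (adjusted p = 2.24e-13).

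Mmp10, stromelysin-2, lies 2 genes from Mmp3 and was also at 0 in both WT libraries. It had 131, 176 and 186 counts in Xap5 KO, 12, 0 and 7 in Nono KO, and 127, 132 and 137 in Sox5 KO. The Xap5 KO and Sox5 KO libraries overlapped each other, whereas 1 Nono KO library was at 0 like WT. Mmp10 exceeded WT at least 55.7-fold in Xap5 KO (adjusted p = 2.6e-07) and at least 57.2-fold in Sox5 KO (adjusted p = 1.04e-07). In Nono KO the bound was at least 2.19-fold (adjusted p = 0.0064), with groups that overlapped. Between Xap5 KO and Sox5 KO the log2 difference was -0.04 ± 0.391 (adjusted p = 0.945), an SE wide enough that the 2 lines are not shown to be alike. Xap5 KO exceeded Nono KO by 4.65 ± 0.516 (adjusted p = 4.53e-07), a value of 5.45 without Nono KO replicate 1 and 4.05 without replicate 2. Mmp3 and Mmp10 share 50-base stretches (8.37% of those of Mmp10 and 7.99% of those of Mmp3). Mmp3 had many more counts in every knockout, so some of the Mmp10 count could belong to Mmp3. How much was not tested, and the few Nono KO counts of Mmp10 are the least certain.

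Mmp27, a less studied family member, had 0 counts in WT, 19, 22 and 16 in Xap5 KO, 22, 18 and 37 in Nono KO, and 81, 62 and 38 in Sox5 KO. All 9 knockout libraries were above WT, with Sox5 KO highest. The bounds were at least 6.43-fold in Xap5 KO (adjusted p = 0.00023), 8.97-fold in Nono KO (adjusted p = 8.16e-05) and 26.1-fold in Sox5 KO (adjusted p = 3.47e-06). Sox5 KO exceeded Nono KO, with a log2 difference of -1.54 ± 0.576 for Nono KO against Sox5 KO (adjusted p = 0.0252). That call ended when any of 4 libraries was left out: Nono KO replicate 1 (adjusted p = 0.0682) or 2 (0.0809), or Sox5 KO replicate 1 (0.118) or 2 (0.0787).

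Mmp8, the collagenase first known from neutrophils, had 0 counts in WT, 54, 20 and 21 in Xap5 KO, 0, 40 and 19 in Nono KO, and 0, 2 and 0 in Sox5 KO. Xap5 KO lay wholly above WT, 1 Nono KO library was at 0, and Sox5 KO was at the floor. It exceeded WT at least 10.8-fold in Xap5 KO (adjusted p = 0.00538) and at least 6.71-fold in Nono KO (adjusted p = 0.00992). The Xap5 KO call was not made without WT replicate 2 (adjusted p = 0.05), and the Nono KO call was not made without either WT library (0.0641 without replicate 1, 0.0696 without replicate 2). Beside this, the neutrophil marker S100a8 also moved in Xap5 KO, from 0.0124 CPM in WT to 0.904, with S100a9, Elane and Ltf at 0 in every library.

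The other cluster genes had at most 27 counts in any library. Mmp13, collagenase-3, had 8 and 18 counts in WT, 8, 18 and 27 in Xap5 KO, 4, 0 and 0 in Nono KO, and 2, 0 and 2 in Sox5 KO. Both WT libraries were above all Nono KO and Sox5 KO libraries, but neither difference was called (adjusted p = 0.0612 and 0.0805). Mmp1a and Mmp1b, the 2 mouse counterparts of the human interstitial collagenase MMP1, never passed 4 counts, Mmp12 (macrophage elastase) never passed 5, Mmp7 (matrilysin) never passed 3, and Mmp20, the enamel protease, was at 0 everywhere. Exons of Mmp12 and Mmp1b overlap on opposite strands, so their few counts cannot be assigned with certainty.

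Of the 6 neighbouring genes plotted, 5 were read in every library, and Ddi1 was at 0 in all 11. Tmem123, next to Mmp7, had 3608 and 3910 counts in WT and rose in each knockout, most in Sox5 KO, by 1.31 ± 0.0709 on the log2 scale, then 0.89 ± 0.0698 in Nono KO and 0.71 ± 0.0695 in Xap5 KO (adjusted p at most 3.45e-08). Dcun1d5, beside Mmp13, had 2344 and 2432 counts in WT and log2 fold changes of 0.14, 0.17 and 0.21 in the Xap5, Nono and Sox5 KO lines (adjusted p = 0.124, 0.0546 and 0.0146). Dync2h1, beyond Dcun1d5, had values of -0.31, 0.37 and -1.48 in the same order (adjusted p = 0.00814, 0.0018 and 1.36e-11). Birc2 was called higher in Nono KO (0.38, adjusted p = 0.00625) and Sox5 KO (0.44, 0.00166) only. Birc3 was called in no line. Over the whole chromosome the median log2 fold change was highest in Nono KO at 0.35, with 0.12 in Xap5 KO and 0.10 in Sox5 KO, and all the Mmp3 calls held with these medians removed.

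**Figure D2:**
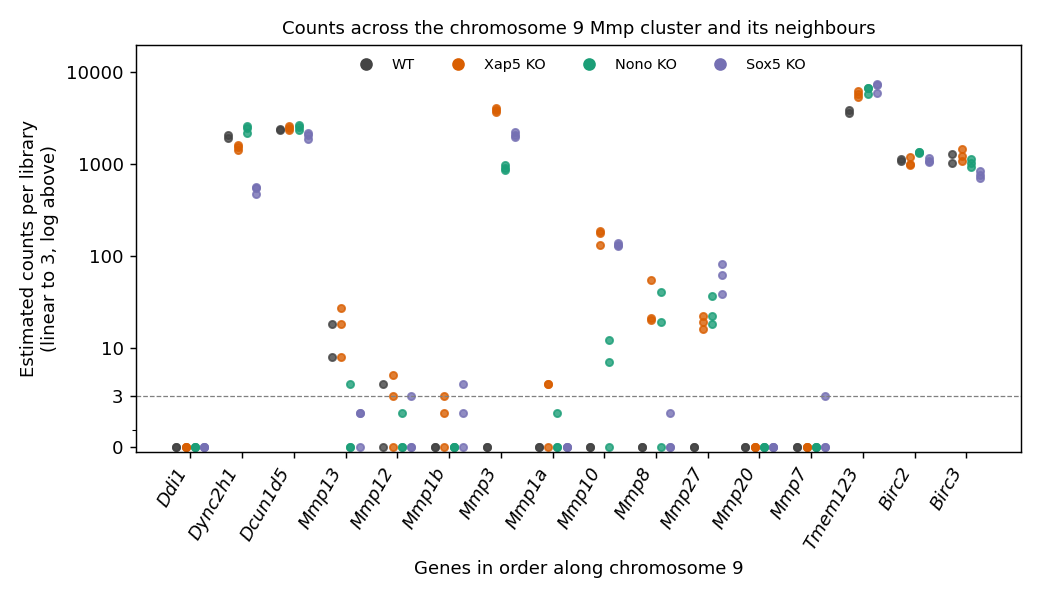
Estimated counts per library (vertical axis, linear up to 3 counts and logarithmic above) for the 10 Mmp genes of chromosome 9 and their neighbours, in chromosome order on the horizontal axis; each point is 1 library, coloured by genotype, and the dashed line marks 3 counts. Mmp3, Mmp10, Mmp8 and Mmp27 lie at 0 in both WT libraries, while Tmem123, Birc2, Birc3, Dcun1d5 and Dync2h1 around them are read in every library and Ddi1 in none.

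The most abundant protease RNAs per kilobase in WT were Mmp2 and Mmp14, the pair that works with Timp2 at the cell surface. Mmp2, the gelatinase that degrades denatured and basement membrane collagen, stood at 904 and 879 CPM in WT, 1190, 1100 and 1303 in Xap5 KO, 1739, 1703 and 1994 in Nono KO, and 2058, 2177 and 2011 in Sox5 KO. The 4 groups did not overlap, with WT lowest and Sox5 KO highest. Mmp2 rose by 0.43 ± 0.0758 on the log2 scale in Xap5 KO (adjusted p = 9.49e-05), 1.02 ± 0.0774 in Nono KO (adjusted p = 4.93e-10) and 1.22 ± 0.078 in Sox5 KO (adjusted p = 1.78e-11). The step between Nono KO and Sox5 KO was small, -0.20 ± 0.067 (adjusted p = 0.0129), and it turned to 0.16 (adjusted p = 0.0428) with chromosome medians removed, so these neighbours are not separated beyond that choice. It was also lost without Nono KO replicate 1 (adjusted p = 0.0657), Nono KO replicate 2 (0.0778) or Sox5 KO replicate 2 (0.0622). Xap5 KO against Sox5 KO was -0.80 ± 0.0674 (adjusted p = 1.67e-09), and -0.21 with chromosome medians removed.

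Mmp14, the membrane-type collagenase MT1-MMP, stood at 847 and 833 CPM in WT, 664, 582 and 656 in Xap5 KO, 811, 858 and 881 in Nono KO, and 593, 647 and 662 in Sox5 KO. Xap5 KO and Sox5 KO overlapped each other and lay wholly below WT, whose values fell inside the Nono KO range. Mmp14 fell by 0.41 ± 0.0656 in Xap5 KO (adjusted p = 3.23e-05) and by 0.41 ± 0.0657 in Sox5 KO (adjusted p = 1.68e-05) on the log2 scale. Xap5 KO against Sox5 KO was 0 ± 0.0593, but 0.32 (adjusted p = 7.88e-05) with chromosome medians removed. In Nono KO the log2 fold change was 0.02 ± 0.0661 (adjusted p = 0.852). Mmp2 rose in both lines in which Mmp14 fell.

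Mmp9, the other gelatinase, stood at 39.9 and 45.5 CPM in WT, 7.41, 7.06 and 6.47 in Xap5 KO, 34.0, 39.9 and 37.9 in Nono KO, and 28.9, 26.1 and 30.01 in Sox5 KO. Xap5 KO stood apart below every other library, and Sox5 KO lay between it and the rest. Mmp9 fell by 2.61 ± 0.108 in Xap5 KO (adjusted p = 3.46e-14) and by 0.59 ± 0.102 in Sox5 KO (adjusted p = 3.7e-05). In Nono KO the log2 fold change was -0.20 ± 0.102 (adjusted p = 0.119); under library totals, which move the median of all genes by -0.18 in this line, it was -0.36 (adjusted p = 0.00493). In Xap5 KO and Sox5 KO, Mmp9 fell where Mmp2 rose.

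Mmp11, stromelysin-3, a secreted protease first described in tumour stroma, stood at 121 and 108 CPM in WT, 52.6, 45.9 and 48.1 in Xap5 KO, 57.4, 66.9 and 66.3 in Nono KO, and 86.6, 81.1 and 83.3 in Sox5 KO. No knockout library reached WT. It fell by 1.23 ± 0.0796 in Xap5 KO (adjusted p = 5.9e-11), 0.85 ± 0.0794 in Nono KO (adjusted p = 1.4e-08) and 0.45 ± 0.0797 in Sox5 KO (adjusted p = 4.73e-05). With chromosome medians removed the Sox5 KO value was -0.13 (adjusted p = 0.18). Exons of Mmp11 overlap Chchd10 on the other strand, and how strand was handled is not given in the sources used here, so reads of the 2 genes could be mixed.

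Mmp24, the membrane-type enzyme MT5-MMP best known from neurons, was scarce but showed the sharpest contrast between knockouts. It had 55 and 54 counts in WT, 0, 0 and 0 in Xap5 KO, 99, 141 and 128 in Nono KO, and 102, 65 and 124 in Sox5 KO. Xap5 KO was silent at this depth, where a count of 0 allows up to 3 counts, and every Nono KO and Sox5 KO library was above WT. Mmp24 was at least 16.8-fold lower than WT in Xap5 KO (adjusted p = 6.16e-08). It rose by 1.27 ± 0.388 in Nono KO (adjusted p = 0.0104) and 1.26 ± 0.389 in Sox5 KO (adjusted p = 0.00882). Without WT replicate 2 these became 1.21 (adjusted p = 0.0663) and 1.18 (0.0572), and without Sox5 KO replicate 3 the Sox5 KO value was 1.05 (0.0535). Exons of Mmp24 overlap BC029722 on the other strand.

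Among the remaining Mmp genes, Mmp28 (epilysin) stood at 28.7 and 25.7 CPM in WT and between 11.6 and 18.2 in the 9 knockout libraries, with no overlap. It fell by 0.88 ± 0.147 in Xap5 KO (adjusted p = 4.71e-05), 0.71 ± 0.147 in Nono KO (adjusted p = 0.000374) and 0.92 ± 0.148 in Sox5 KO (adjusted p = 1.59e-05). Exons of Mmp28 overlap 1700020L24Rik on the other strand, and those of Mmp19, described next, overlap Tmem198b in the same way. Mmp19, a basement membrane protease, stood at 83.7 and 90.0 CPM in WT, 51.4 to 55.0 in Xap5 KO, 81.1 to 82.3 in Nono KO and 70.0 to 77.1 in Sox5 KO. It fell by 0.71 ± 0.068 in Xap5 KO (adjusted p = 2.52e-08); the Sox5 KO value of -0.24 ± 0.0683 (adjusted p = 0.0044) turned to 0.08 (0.326) with chromosome medians removed and was not called without WT replicate 2 (0.0788). Mmp16, the membrane-type enzyme MT3-MMP, had 32 and 24 counts in WT, 0, 0 and 13 in Xap5 KO, 0 in each Nono KO library, and 4, 6 and 2 in Sox5 KO. All knockout libraries were below WT, but only Nono KO was called, at least 8.08-fold lower (adjusted p = 0.00385). Mmp17 and Mmp23 never passed 20 and 56 counts and were not called.

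**Figure D3:**
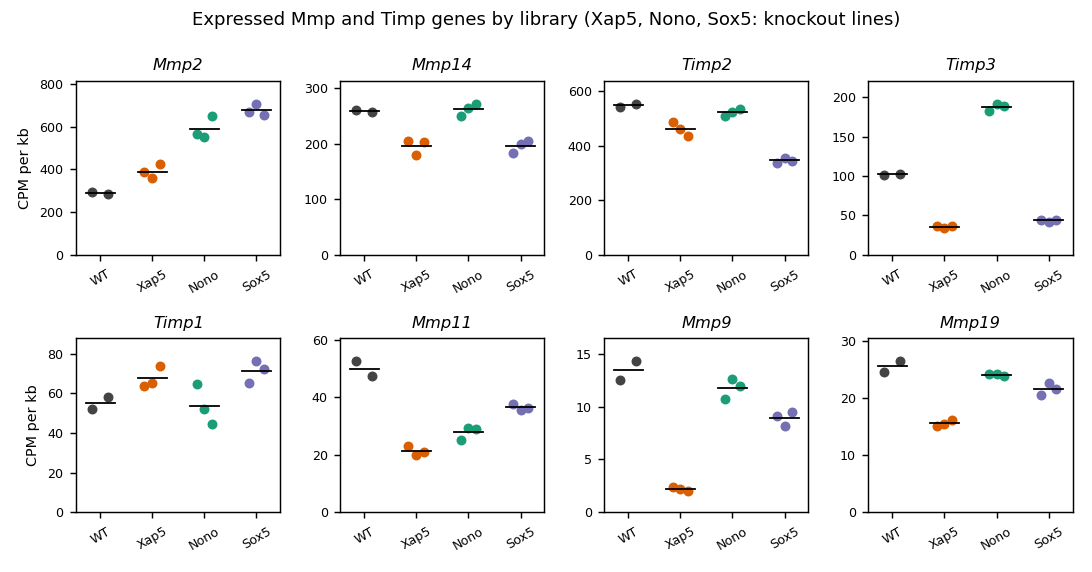
CPM per kilobase of the longest transcript (vertical axis) of 5 Mmp and 3 Timp genes in each of the 11 libraries by genotype (horizontal axis); points are libraries and lines are group means. Mmp2 is higher in all 9 knockout libraries than in WT, Timp3 is high in Nono KO and low in Xap5 KO and Sox5 KO, and Mmp9 is lowest in Xap5 KO.

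Among the ADAMTS proteases that cut versican and aggrecan, Adamts1, Adamts5 and Adamts9 rose in every knockout, while Adamts4 and Adamts15, also tested, were not called in every one. Adamts1 and Adamts5 are adjacent on chromosome 16 within 108 kb. Adamts1 stood at 145 and 142 CPM in WT, 294, 275 and 293 in Xap5 KO, 526, 536 and 583 in Nono KO, and 312, 330 and 325 in Sox5 KO. No groups overlapped, with Nono KO highest. Its log2 fold changes were 1.00 ± 0.0617 in Xap5 KO (adjusted p = 2.62e-11), 1.93 ± 0.0641 in Nono KO (adjusted p = 8.06e-16) and 1.17 ± 0.0621 in Sox5 KO (adjusted p = 1e-12). Xap5 KO and Sox5 KO differed by only -0.17 ± 0.0533 (adjusted p = 0.00994), and not by the test under library totals (-0.10, adjusted p = 0.0918) or without Xap5 KO replicate 2 (-0.14, 0.0548).

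Adamts5, the main aggrecanase of mouse cartilage, stood at 112 and 107 CPM in WT, 263, 257 and 238 in Xap5 KO, 386, 396 and 441 in Nono KO, and 155, 146 and 155 in Sox5 KO. The order was WT, Sox5 KO, Xap5 KO, Nono KO with no overlap. The log2 fold changes were 1.21 ± 0.0684 in Xap5 KO (adjusted p = 6.41e-12), 1.90 ± 0.0703 in Nono KO (adjusted p = 4.73e-15) and 0.48 ± 0.0671 in Sox5 KO (adjusted p = 2.74e-06). With an offset fitted to length and GC content the Sox5 KO value was 1.20, and Xap5 KO no longer differed from Sox5 KO by the test (0.05, adjusted p = 0.449, against 0.74 ± 0.0592, 7.85e-10).

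Adamts9, which is also known from work on primary cilia, stood at 12.9 CPM in both WT libraries, 73.4, 66.3 and 58.8 in Xap5 KO, 87.1, 81.4 and 80.3 in Nono KO, and 24.1, 23.8 and 23.2 in Sox5 KO. All groups were separate. It rose by 2.36 ± 0.0984 in Xap5 KO (adjusted p = 4.28e-14), 2.68 ± 0.0996 in Nono KO (adjusted p = 4.89e-15) and 0.88 ± 0.0957 in Sox5 KO (adjusted p = 7.93e-08). Adamts15, another versican-cutting enzyme, had 0 counts in WT, 20, 8 and 16 in Xap5 KO, 44, 18 and 16 in Nono KO, and 2, 0 and 5 in Sox5 KO. It exceeded WT at least 5.02-fold in Xap5 KO (adjusted p = 0.00605; 0.0508 and 0.0543 without WT replicate 1 or 2) and at least 8.8-fold in Nono KO (adjusted p = 0.00198).

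Versican (Vcan) was the only large proteoglycan listed here as a substrate of these enzymes that was read at over 3 CPM. It rose with Adamts1, Adamts5 and Adamts9 in Nono KO but fell in Xap5 KO and Sox5 KO, where they rose. Its mean was 729 CPM in Nono KO, 581 in WT, 406 in Xap5 KO and 116 in Sox5 KO. It fell in Xap5 KO (log2 fold change -0.52 ± 0.066, adjusted p = 1.56e-06) and Sox5 KO (-2.33 ± 0.0672, adjusted p = 7.54e-17) and rose in Nono KO (0.33 ± 0.0671, adjusted p = 0.000358). Of the 4 tested genes on the list of hyalectan substrates and their link proteins, 3 fell in Xap5 KO, 1 rose and 2 fell in Nono KO, and 1 fell in Sox5 KO (1 rose and 1 fell with chromosome medians removed). The shares of all tested genes called in these lines were 45.5%, 48.6% and 60.9%, in the same order. Aggrecan (Acan) never passed 4 counts.

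The 2 procollagen N-propeptidases that were read, Adamts2 and Adamts14, moved apart. These enzymes remove the amino-terminal propeptide of fibrillar procollagens. Adamts2 stood at 56.6 and 57.5 CPM in WT, 74.6, 63.7 and 79.1 in Xap5 KO, 248, 245 and 279 in Nono KO, and 191, 199 and 191 in Sox5 KO. Each group was separate and WT was lowest. It rose by 0.35 ± 0.0788 in Xap5 KO (adjusted p = 0.00116), 2.17 ± 0.0832 in Nono KO (adjusted p = 8.24e-15) and 1.76 ± 0.082 in Sox5 KO (adjusted p = 1.23e-13). Nono KO exceeded Sox5 KO by 0.41 ± 0.068 (adjusted p = 1.96e-05), and by 0.01 (0.894) with the length and GC offset.

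Adamts14 stood at 73.7 and 73.0 CPM in WT, 12.4, 11.6 and 13.6 in Xap5 KO, 57.8, 53.1 and 51.8 in Nono KO, and 43.5, 45.2 and 48.3 in Sox5 KO. All knockout libraries were below WT, Xap5 KO by far the most. It fell by 2.55 ± 0.0884 in Xap5 KO (adjusted p = 1.97e-15), 0.43 ± 0.0848 in Nono KO (adjusted p = 0.00022) and 0.68 ± 0.0851 in Sox5 KO (adjusted p = 5.13e-07). Adamts3, the third enzyme of this kind, was at 0 in every library. Beside these, Bmp1, the enzyme that removes the carboxy-terminal propeptide, had log2 fold changes of -0.21 ± 0.0682 in Xap5 KO (adjusted p = 0.0149), -0.21 ± 0.0682 in Nono KO (adjusted p = 0.0137) and 0.58 ± 0.0693 in Sox5 KO (adjusted p = 2.96e-07). Of the 5 tested genes on the procollagen processing list, which includes Adamts2 and Adamts14, 2 rose and 3 fell in Xap5 KO (2 and 1 with chromosome medians removed), 2 rose and 2 fell in Nono KO, and 3 rose and 2 fell in Sox5 KO. Beside these stand the 45.5%, 48.6% and 60.9% of all tested genes called in the 3 lines.

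Adamts7 and Adamts12, close relatives that cut cartilage oligomeric matrix protein, took opposite directions. Adamts7 stood at 135 and 138 CPM in WT, 219, 207 and 215 in Xap5 KO, 114, 112 and 108 in Nono KO, and 248, 259 and 264 in Sox5 KO. Nono KO was the only group below WT. Adamts7 rose by 0.65 ± 0.0578 in Xap5 KO (adjusted p = 8.93e-09) and 0.92 ± 0.0583 in Sox5 KO (adjusted p = 1.71e-11) and fell by 0.30 ± 0.0568 in Nono KO (adjusted p = 0.000188). The Nono KO call ended with the length and GC offset (-0.12, adjusted p = 0.0655), and exons of Adamts7 overlap Tbc1d2b on the other strand.

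Adamts12 stood at 19.9 and 20.4 CPM in WT, 19.4, 18.6 and 17.7 in Xap5 KO, 55.3, 57.1 and 58.2 in Nono KO, and 7.11, 7.35 and 7.82 in Sox5 KO. Nono KO was above and Sox5 KO below all other libraries. It rose by 1.5 ± 0.0954 in Nono KO (adjusted p = 3.17e-11) and fell by 1.44 ± 0.0972 in Sox5 KO (adjusted p = 4.67e-11), or by 0.85 with the length and GC offset. In Xap5 KO the log2 fold change was -0.12 ± 0.093 (adjusted p = 0.325).

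Adamts6 and Adamts10 form another pair, known for acting on fibrillin microfibrils and cell surface adhesion. Adamts6 stood at 4.71 and 4.04 CPM in WT, 6.23, 6.11 and 7.01 in Xap5 KO, 16.0, 17.0 and 17.95 in Nono KO, and 8.60, 7.08 and 8.96 in Sox5 KO. Every knockout library was above WT, and Nono KO was above all others. It rose by 1.96 ± 0.169 in Nono KO (adjusted p = 4.19e-09) and 0.91 ± 0.167 in Sox5 KO (adjusted p = 7.3e-05). The Xap5 KO value of 0.56 ± 0.166 (adjusted p = 0.0088) was not called with chromosome medians removed (0.27, adjusted p = 0.213) or without WT replicate 2 (0.44, 0.11).

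Adamts10 stood at 30.9 and 28.6 CPM in WT, 56.3, 55.7 and 68.1 in Xap5 KO, 51.8, 50.5 and 49.8 in Nono KO, and 26.8, 29.2 and 27.6 in Sox5 KO. Sox5 KO overlapped WT, while Xap5 KO and Nono KO were above both. It rose by 1.01 ± 0.0945 in Xap5 KO (adjusted p = 1.79e-08) and 0.77 ± 0.094 in Nono KO (adjusted p = 6.99e-07), and Sox5 KO differed from WT by -0.09 ± 0.0936 (adjusted p = 0.416). Xap5 KO and Nono KO differed by 0.24 ± 0.0814 (adjusted p = 0.0157), which was not called without Xap5 KO replicate 3 (0.13, 0.176) or with chromosome medians removed (0.08, 0.426).

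The ADAMTS-like proteins lack the protease domain and bind microfibrils and other matrix. Adamtsl4, a fibrillin partner, stood at 11.3 and 8.74 CPM in WT, 6.90, 5.33 and 4.79 in Xap5 KO, 28.9, 30.5 and 26.8 in Nono KO, and 3.90, 2.47 and 4.12 in Sox5 KO. Nono KO was wholly above WT and the other 2 lines wholly below it. It fell by 0.82 ± 0.186 in Xap5 KO (adjusted p = 0.00109) and by 1.51 ± 0.193 in Sox5 KO (adjusted p = 7.26e-07) and rose by 1.52 ± 0.188 in Nono KO (adjusted p = 8.75e-07). Adamtsl5, a microfibril-associated relative, stood at 81.6 and 79.8 CPM in WT, 52.3, 48.4 and 56.4 in Xap5 KO, 76.5, 82.1 and 86.5 in Nono KO, and 46.9, 42.3 and 41.1 in Sox5 KO. Xap5 KO and Sox5 KO lay wholly below WT. It fell by 0.89 ± 0.0815 in Sox5 KO (adjusted p = 5.3e-09). Its fall of 0.62 ± 0.0811 in Xap5 KO (adjusted p = 2.02e-06) was not called with chromosome medians removed (-0.16, adjusted p = 0.131), and Nono KO straddled WT (0.02 ± 0.0815, adjusted p = 0.878).

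Their fibrillin partner Fbn1 rose in every line, by 2.57 ± 0.0768 in Nono KO, 0.64 ± 0.0719 in Sox5 KO and 0.43 ± 0.0715 in Xap5 KO (adjusted p at most 4.38e-05). Of the 5 tested genes on the list of fibrillins and latent TGF-beta binding proteins, 1 rose and 4 fell in Xap5 KO, 2 rose and 3 fell in Nono KO, and 1 rose and 4 fell in Sox5 KO. All tested genes were called at shares of 45.5%, 48.6% and 60.9% in these lines, in the same order.

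**Figure D4:**
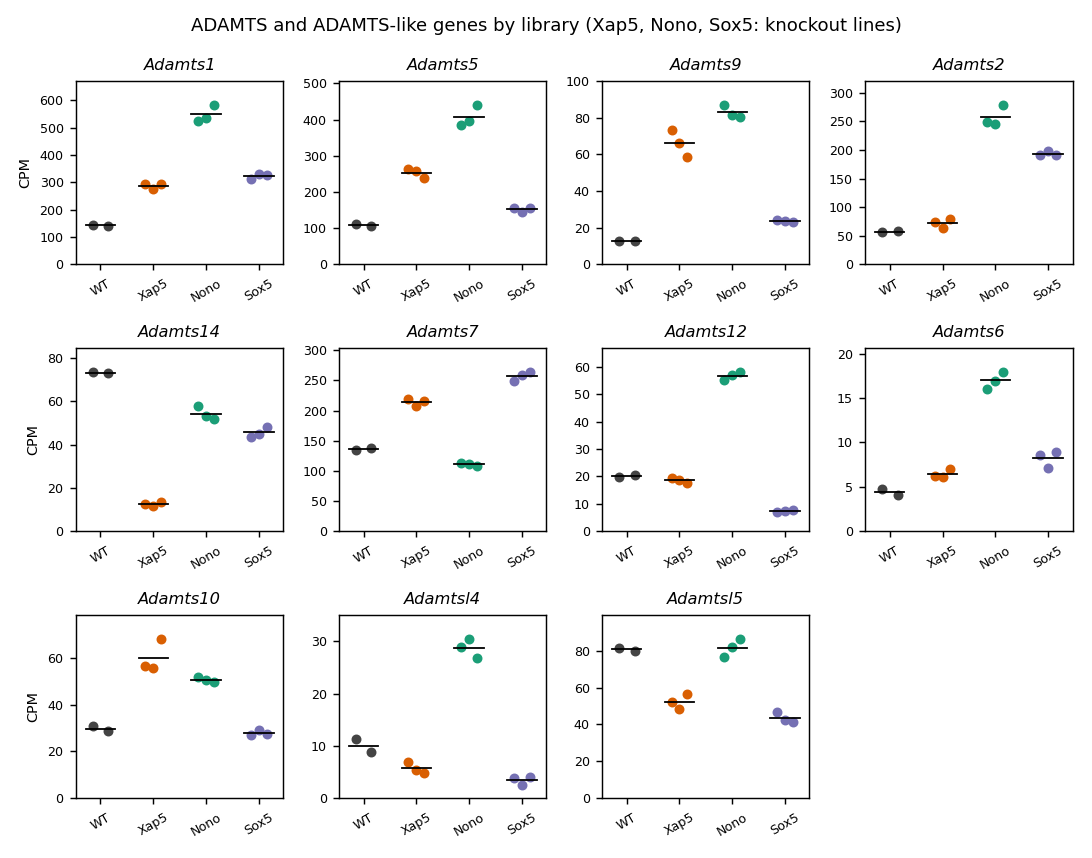
CPM (vertical axis, each panel from 0) of 9 Adamts and 2 Adamtsl genes in each library by genotype (horizontal axis); points are libraries and lines are group means. Adamts1, Adamts5, Adamts9, Adamts2, Adamts6, Adamts12 and Adamtsl4 are highest in Nono KO, while Adamts14 is lowest in Xap5 KO and Adamts12 in Sox5 KO.

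Of the inhibitors, Timp2, which both inhibits Mmp enzymes and takes part in activating the MMP2 precursor, was the most abundant gene of all 51 per kilobase in WT. It stood at 2007 and 2057 CPM in WT, 1812, 1713 and 1619 in Xap5 KO, 1892, 1940 and 1984 in Nono KO, and 1252, 1324 and 1278 in Sox5 KO. All 9 knockout libraries were below both WT libraries, with Sox5 KO lowest. It fell by 0.66 ± 0.0595 in Sox5 KO (adjusted p = 4.26e-09) and 0.24 ± 0.0598 in Xap5 KO (adjusted p = 0.00206). In Nono KO the log2 fold change was -0.07 ± 0.0601 (adjusted p = 0.377), and -0.23 (0.00121) under library totals.

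Timp3, the inhibitor that stays bound to the matrix and also blocks several ADAM and ADAMTS enzymes, stood at 480 and 486 CPM in WT, 170, 162 and 172 in Xap5 KO, 864, 906 and 892 in Nono KO, and 208, 198 and 210 in Sox5 KO. Nono KO was wholly above WT and the other lines wholly below, Xap5 KO lowest. It rose by 0.88 ± 0.0565 in Nono KO (adjusted p = 3.73e-11) and fell by 1.52 ± 0.0547 in Xap5 KO (adjusted p = 3.54e-15) and by 1.24 ± 0.0547 in Sox5 KO (adjusted p = 6.21e-14). Exons of Timp3 overlap Syn3 on the other strand, but Syn3 averaged at most 0.505 CPM in any group.

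Timp1, the soluble inhibitor induced by serum and cytokines, stood at 46.2 and 51.5 CPM in WT, 56.4, 57.7 and 65.3 in Xap5 KO, 57.2, 46.2 and 39.2 in Nono KO, and 57.9, 67.4 and 64.1 in Sox5 KO. Xap5 KO and Sox5 KO were just above WT, and Nono KO spanned it. The Sox5 KO value was 0.37 ± 0.125 (adjusted p = 0.0179), but it was 0.26 (0.103) under library totals, 0.23 (0.127) with chromosome medians removed and -0.27 (0.0233) with the length and GC offset. It was not called without Sox5 KO replicate 2 (0.32, 0.0622) or WT replicate 1 (0.29, 0.158), so no direction is drawn for this short, X-linked gene. In Xap5 KO and Nono KO the log2 fold changes were 0.29 ± 0.125 and -0.04 ± 0.124 (adjusted p = 0.0687 and 0.825). The Xap5 KO value was called in a fit of only those 2 groups (0.28, adjusted p = 0.021) and without Nono KO replicate 1 (0.0182) or 3 (0.0201), and the Nono KO value was called lower with the length and GC offset (-0.29, 0.0214). Timp4 had 22 to 79 counts per library and was called in no line.

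With Timp1 uncalled in 2 lines and Timp4 in all 3, the Timp genes called against WT were 2 lower in Xap5 KO, 1 higher in Nono KO, and 1 higher and 2 lower in Sox5 KO. Of all tested genes 45.5%, 48.6% and 60.9% were called in these lines, in the same order. Under library totals the split was 1 higher and 1 lower in Nono KO, and 0 higher and 2 lower in Sox5 KO; removing chromosome medians also gave 0 higher and 2 lower in Sox5 KO.

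Summed per kilobase, the 23 Mmp genes gave 640 to 654 CPM per kb in WT, 639 to 728 in Xap5 KO, 895 to 1005 in Nono KO and 967 to 1020 in Sox5 KO. The 4 Timp genes summed to 696 to 716 in WT, 547 to 589 in Xap5 KO, 758 to 768 in Nono KO and 448 to 476 in Sox5 KO. The ratio of Timp to Mmp was 1.06 and 1.119 in the WT libraries, 0.752 to 0.880 in Xap5 KO, 0.765 to 0.849 in Nono KO and 0.463 to 0.476 in Sox5 KO. All 9 knockout ratios were below both WT ratios, by more Mmp RNA in Nono KO, more Mmp and less Timp RNA in Sox5 KO, and mainly less Timp RNA in Xap5 KO, whose Mmp sums reached down to the WT range. These ratios are of RNA and are given without a test. Mmp2, Mmp14 and Timp2 make up most of the sums, but other genes also differed between groups. Timp3 averaged 102.3 CPM per kb in WT, against 35.62, 187.9 and 43.45 in the Xap5, Nono and Sox5 KO lines. Timp2 averaged 547.8 in WT, against 462.3, 522.8 and 346.4 in the same order. Mmp3 averaged 0 in WT, against 54.61, 12.95 and 37.3. The Xap5 KO mean of Mmp2 was 389.1 against 289.6 in WT, and that of Mmp14 was 195.8 against 259.4.

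**Figure D5:**
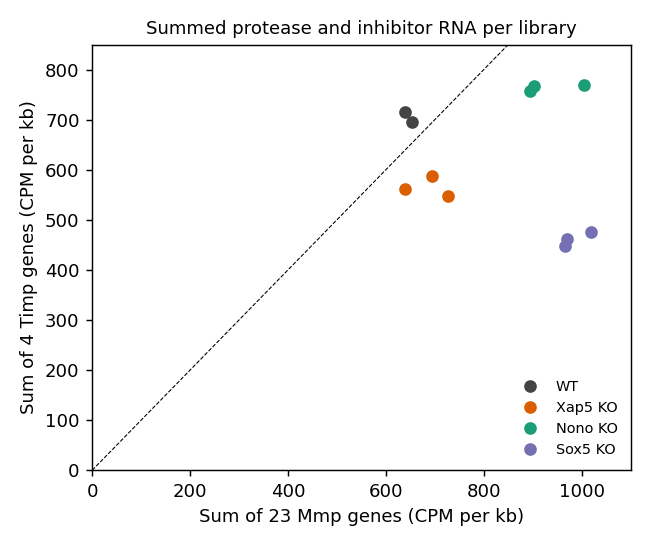
Summed CPM per kilobase of the 23 Mmp genes (horizontal axis) and the 4 Timp genes (vertical axis), 1 point per library coloured by genotype; the dashed line marks equal sums. The WT libraries lie just above the line, with Timp to Mmp ratios of 1.06 and 1.119, and all 9 knockout libraries lie below it, Sox5 KO farthest at 0.463 to 0.476.

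Compared with each other, the knockouts differed at most of these genes. Xap5 KO against Nono KO called 24 of the 33, 6 higher and 18 lower in Xap5 KO (53% of all tested genes were called, 27.1% higher and 25.9% lower). Xap5 KO against Sox5 KO called 22, 10 higher and 12 lower (61.6% of all genes, 31.1% higher and 30.4% lower). Nono KO against Sox5 KO called 26, 18 higher and 8 lower in Nono KO (63.5% of all genes, 30.9% higher and 32.6% lower). Called and at least 2-fold apart were 11, 10 and 13 in the same order, against 11.1%, 15% and 17% of all genes, and libraries did not overlap at 57.9%, 67% and 69.1% of all genes. The Adamts genes account for much of the Nono KO side: 10 of 12 were higher and 1 lower in Nono KO than in Sox5 KO, and 8 were lower and 2 higher in Xap5 KO than in Nono KO. Their median log2 difference was 0.83 for Nono KO against Sox5 KO and -0.87 for Xap5 KO against Nono KO.

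Chromosome 10 is described because of its values, which were seen first. The 5 tested genes on it, Mmp11, Mmp19, Adamts14, Adamtsl5 and Timp3, were all lower in Xap5 KO and all lower in Sox5 KO, while in Nono KO 1 was higher and 2 lower. Of all 643 tested genes of that chromosome, 62.2% were called lower in Xap5 KO, 46% in Sox5 KO and 31.6% in Nono KO, against 22.3%, 30.3% and 25.1% of all tested genes. The median log2 fold change over these 643 genes was -0.46 in Xap5 KO, -0.32 in Sox5 KO and -0.14 in Nono KO. With that median removed, the Timp3 values were -1.06 in Xap5 KO (adjusted p = 1.64e-12) and -0.91 in Sox5 KO (8.55e-12), and the Adamts14 values were -2.08 (5.35e-14) and -0.36 (0.00106). Of the 10 lower calls in Xap5 KO and Sox5 KO, 3 were not made with it removed: Adamtsl5 in Xap5 KO (-0.16, adjusted p = 0.131), and Mmp11 (-0.13, 0.18) and Mmp19 (0.08, 0.326) in Sox5 KO.

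Below the filter stood 18 of the 51 genes. Mmp20, Adamts3, Adamts18 and Adamts19 were at 0 in all 11 libraries. The other 14, among them the cluster genes Mmp1a, Mmp1b, Mmp7 and Mmp12, had at most 16 counts in any library: Adamtsl3 reached 16, in 1 WT library, Adamtsl2 11, Adamts20 10, Mmp15 8, and Adamts13, the von Willebrand factor protease, 6. Adamtsl1 had 5, 6 and 6 counts in Sox5 KO, 4 in 1 Nono KO library and 0 elsewhere. Adamts17, Adamts8, Mmp21 and Mmp25 never passed 4. Adamts16 passed the filter with 0 to 20 counts and was not called.

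Other parts of the proteolytic system were followed on short gene lists. Over all tested genes 23.2% rose and 22.3% fell in Xap5 KO, and 23.5% and 25.1% in Nono KO. In Sox5 KO these shares were 30.6% and 30.3%, and the list counts from here on are to be read beside them. Of 9 tested genes of the plasminogen system, which yields the plasmin that activates Mmp precursors, 4 rose and 2 fell in Xap5 KO, 4 rose and 1 fell in Nono KO (4 and 2 under library totals), and 5 rose and 1 fell in Sox5 KO. Plau, the urokinase, rose from a mean of 3.53 CPM in WT to 12.5, 16.4 and 12.4 in the Xap5, Nono and Sox5 KO lines, with log2 fold changes of 1.83 ± 0.15, 2.22 ± 0.151 and 1.81 ± 0.15 (adjusted p at most 2.59e-09). Serpine2, an inhibitor of urokinase, also rose, by 1.01 ± 0.0616, 1.44 ± 0.0625 and 2.17 ± 0.0644 in the same order (adjusted p at most 2.15e-11). Serpinb2, a further inhibitor, fell in all 3 from a mean of only 0.791 CPM in WT (adjusted p = 0.0243, 0.0332 and 0.0106).

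Of 7 tested genes among other inhibitors and clearance receptors, 4 fell in Xap5 KO, 3 rose and 3 fell in Nono KO, and 2 rose and 5 fell in Sox5 KO; 1 rose and 4 fell in Xap5 KO with chromosome medians removed. Lrp1, the receptor that clears several of these proteases and TIMPs, fell by 0.91 ± 0.0595 in Xap5 KO (adjusted p = 6.53e-11) and 1.47 ± 0.0595 in Sox5 KO (adjusted p = 1.54e-14), with 0.12 ± 0.0604 in Nono KO (adjusted p = 0.103). Cd44, the hyaluronan receptor to which Mmp enzymes dock, fell by 0.90 ± 0.0694, 1.31 ± 0.0695 and 1.54 ± 0.0698 in the Xap5, Nono and Sox5 KO lines (adjusted p at most 9.73e-10).

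Of the 8 membrane ADAM sheddases, relatives that shed proteins from the cell surface, 3 rose and 2 fell in Xap5 KO, 4 rose and 1 fell in Nono KO, and 3 rose and 1 fell in Sox5 KO. Under library totals these splits were 1 and 3, 4 and 3, and 3 and 2, and with chromosome medians removed 2 and 1, 4 and 1, and 3 and 3. Adam12 had the largest change in Nono KO and in Sox5 KO, with log2 fold changes of 0.27 ± 0.0971, 2.61 ± 0.101 and 1.88 ± 0.0992 in the Xap5, Nono and Sox5 KO lines (adjusted p at most 0.0297). In Xap5 KO the largest was that of Adam17, which fell by 0.59 ± 0.0662 (adjusted p = 2.93e-07). Furin, a convertase that cuts the propeptide of Mmp14 and several ADAMTS precursors, fell by 0.54 ± 0.06 in Nono KO (adjusted p = 2e-07) and by 0.19 ± 0.0603 in Sox5 KO (adjusted p = 0.0115), with 0.14 ± 0.0604 in Xap5 KO (adjusted p = 0.057). Of the 6 convertases listed only Furin and Pcsk7 passed the filter.

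Of the 12 genes listed as AP-1, Ets and Runx regulators of Mmp promoters, all tested, 4 rose and 3 fell in Xap5 KO, 4 rose and 5 fell in Nono KO, and 0 rose and 6 fell in Sox5 KO (2 and 7 with chromosome medians removed). Jun fell in each line, from a mean of 346 CPM in WT to 110, 232 and 98.4 CPM in the Xap5, Nono and Sox5 KO lines, by 1.66 ± 0.0668, 0.58 ± 0.0665 and 1.82 ± 0.0672 (adjusted p at most 3.2e-07). Fos fell by 2.30 ± 0.513 in Sox5 KO (adjusted p = 0.000565), and the Ets gene Etv4 fell by 1.81 ± 0.268 in Nono KO (adjusted p = 0.000497). Other genes of the list rose: Fosl2, an AP-1 gene named here after its values were seen, rose by 0.32 ± 0.0638 in Xap5 KO (adjusted p = 0.000348) and by 1.01 ± 0.065 in Nono KO (adjusted p = 3.71e-11). Protein and binding were not measured.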

How the data were processed

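The values are estimated counts per gene that the authors deposited in 1 table as whole numbers, per the file headers, with an ID and a symbol for each gene; the value 2 occurs 3302 times and the value 1 only 857 times, so rounded estimates or mates counted singly are both possible, and a count may then stand for less than 1 fragment. The submitters' processing notes name HISAT2 2.1.0, StringTie 1.3.3b, DESeq2 1.12.4 and the builds GRCm39 and mm39, without roles. Strand handling and the annotation used are not given in the sources used here. Per the labels' protocols, TRIzol served for the RNA and a NEBNext Ultra II kit for the libraries. All sample columns were used.

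The 11 libraries were fitted together in edgeR 4.0.16 (R 4.3.3) with TMM scaling, 1 mean per genotype and no block, after edgeR's filter (at least 10 counts in enough libraries, 15 in total), which kept 13332 of 21684 genes; the counts were already whole, so rounding changed nothing. Calls use the robust quasi-likelihood test at an adjusted p under 0.05 (Benjamini-Hochberg over all tested genes). The script was checked on simulated data. The common biological coefficient of variation was 10.6%. A group with at most 3 counts in every library is at the floor, and its fold is a lower bound against the highest CPM that 3 counts make in its libraries; floors cover counting error only, since reads are not independent molecules.

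Gene order, length, GC content and overlaps came from GENCODE M21 (GRCm38), in which 21591 of the 21684 IDs and all 51 genes described here were found; gene coordinates are not given, apart from those of the printed promoters, since the authors' notes name another build. RefSeq promoters (GRCm38.p6) matched 36 of the 51 genes. Values per library are given for the Timp genes, for genes reaching a mean of 1 CPM that were called with a log2 fold change of at least 1 against WT, and for the 3 highest per kilobase in WT of each other class; of the 16 lists at most 4 called genes each are named. The genes, lists and tests were chosen with earlier results of these data known. Alternatives were other scalings (library totals, DESeq2's size factors, each chromosome's median removed, an offset for length and GC), DESeq2 1.42.0, no filter or a stricter one, fits of only the groups compared, a replicate block, and leaving out each library. A few single-gene results are not reported here, and no values of Adamts4 are printed in the text; all these genes remain in the counts.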

Additional observations from a re-analysis of the deposited data

Results flagged for a closer look

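Of the 33 tested genes, 5 were called in opposite directions against WT in different knockouts. The difference between those knockouts comes from the same fit (edgeR's quasi-likelihood test, adjusted over all tested genes). These comparisons were picked because the 2 knockouts were called on opposite sides of the same WT libraries. A difference between them was thus nearly fixed in advance, and the values below give its size and are no further support. The log2 difference of Timp3 was -2.40 ± 0.052 (SE) for Xap5 KO against Nono KO (adjusted p = 1.14e-18) and 2.11 ± 0.0515 for Nono KO against Sox5 KO (adjusted p = 3.31e-18). For Adamtsl4 these were -2.34 ± 0.17 (adjusted p = 2.75e-10) and 3.03 ± 0.181 (adjusted p = 5.29e-12). For Adamts7 they were 0.95 ± 0.0513 (adjusted p = 2.73e-12) and -1.21 ± 0.0516 (adjusted p = 2.52e-14). Adamts12 was higher in Nono KO than in Sox5 KO by 2.94 ± 0.0909 (adjusted p = 1.67e-16). Mmp24, unread in Xap5 KO, was at least 40.6-fold lower there than in Nono KO (adjusted p = 1.3e-09) and at least 40.2-fold lower than in Sox5 KO (adjusted p = 8.58e-10). In each of these comparisons the libraries of the 2 lines did not overlap. Groups of 2 and 3 libraries are too small for a check on single outlying libraries.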

How the results depend on the processing

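The number of genes called stayed within 1.5 times of its value in all 6 comparisons under every scaling, test, filter and block tried; leaving out 1 library gave 21 to 25 for Xap5 KO against WT, 20 to 23 for Nono KO, 21 to 23 for Sox5 KO, and 21 to 26, 20 to 23 and 21 to 26 for Xap5 KO against Nono KO, Xap5 KO against Sox5 KO and Nono KO against Sox5 KO. Requiring a 2-fold change as well left 14, 15 and 10 genes against WT in the Xap5, Nono and Sox5 KO lines, and 11, 10 and 13 in the last 3 comparisons, as fewer genes pass by construction. Values that changed sign were small or belonged to Timp1. With chromosome medians removed, Timp1 was -0.06 in Xap5 KO and 0.29 in Nono KO against WT, -0.36 for Xap5 KO against Nono KO and 0.06 for Nono KO against Sox5 KO; Mmp14 was -0.02 in Nono KO, Mmp19 0.08 in Sox5 KO and Mmp2 0.16 for Nono KO against Sox5 KO. With the length and GC offset, Timp1 was -0.27 in Sox5 KO and 0.35 for Xap5 KO against Sox5 KO, Adamts10 was 0.12 in Sox5 KO, Mmp10 0.19 for Xap5 KO against Sox5 KO and Mmp24 -0.06 for Nono KO against Sox5 KO. Under library totals Mmp14 and Adamtsl5 were both -0.15 in Nono KO, Mmp10 was 0.03 for Xap5 KO against Sox5 KO and Mmp24 -0.04 for Nono KO against Sox5 KO. The cause of these changes was not tested. Leaving out 1 library moved the log2 value across 0 in 7 uncalled cases: Adamtsl5 (-0.02 to 0.06), Mmp14 (-0.01 to 0.05) and Timp1 (-0.19 to 0.08) in Nono KO, Timp4 in Sox5 KO (-0.22 to 0.71), Mmp10 for Xap5 KO against Sox5 KO (-0.15 to 0.09), Mmp24 for Nono KO against Sox5 KO (-0.18 to 0.23) and Timp4 for Xap5 KO against Nono KO (-0.71 to 0.13). A further uncalled case, Mmp14 for Xap5 KO against Sox5 KO, had a value that rounds to 0 and ran from -0.05 to 0.05. No pairing of same-numbered replicates was seen: of 15 pairs none had deviations correlated above 0.1 (range -0.0226 to 0.0465). The labels do not say whether these replicates were handled together. Deviations of only 2 WT libraries mirror each other, so this check cannot show that pairing was absent. With the replicate number as a block, the calls numbered 24, 22 and 23 against WT and 23, 22 and 26 between knockouts, Mmp14 in Nono KO was -0.01, and Timp1 for Xap5 KO against Nono KO kept 0.33 (adjusted p = 0.0522). That Timp1 call (0.33 ± 0.111, adjusted p = 0.02) was also not made without Nono KO replicate 2 (0.0676) or 3 (0.0848) or Xap5 KO replicate 3 (0.104). Depth limits genes with few counts, such as Mmp8, Mmp13, Mmp16 and Adamts15, which had at most 54, 27, 32 and 44 counts in any library.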
